A study of Homo sapiens with 12 samples.

Results

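Expression of the proteasome genes was examined with and without knockout of SMARCA4 in 2 lines derived from human breast cancers, MDA-MB-468 and its more mesenchymal counterpart MDA-MB-231. The members were all genes of the deposited table whose symbol begins with PSMA, PSMB, PSMC, PSMD, PSME, PSMF or PSMG and a digit, leaving out PSMB8 and PSMB9. This rule gave 46 of the 11529 genes, of which 44 encode proteasome subunits, assembly chaperones or regulators. The other 2 were PSMC3IP, a recombination factor that is not a proteasome subunit, and PSMD5-AS1, an RNA antisense to PSMD5. PSMA8 and PSMB11, subunits of testis and thymus, were not analysed here. RNA was sequenced from 12 samples in 4 groups of 3. The labels call the other samples of each line both wild type and control. In the protein blots of the study, wild type means parental cells and control means cells that carry a nontargeting CRISPR/Cas9 vector, and which of these was sequenced is not settled by the sources used here. The SMARCA4 KO cells had received Cas9 and 1 guide RNA against SMARCA4 from a lentivirus, lentiCRISPR-v2, and were selected with puromycin as a pool rather than as single clones. SMARCA4 is an ATPase of the SWI/SNF complex, which moves nucleosomes. Nothing in the labels says whether the 3 samples of a group came from separate transductions, so p-values measure the spread between these samples, which may be technical.

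The proteasome degrades proteins that carry ubiquitin. Its core particle is a barrel of α subunits, which gate the entry, and β subunits, of which PSMB5, PSMB6 and PSMB7 cut peptide bonds. The regulatory particle has a base with ATPases that unfold the substrate and a lid that removes ubiquitin, and dedicated chaperones assemble both particles. Transcription of many of these genes is raised together by NFE2L1 when proteasome activity is low, through antioxidant response elements in their promoters. Cancer cells with a high load of misfolded protein depend on this machinery, and it is a drug target in myeloma.

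Promoter sequences are shown for the members at the extremes of the comparison between the control cells of both lines, namely the 3 lowest and the 3 highest with an entry in the RefSeq promoter table (GRCh38.p14). They show whether the genes farthest apart carry letters known from proteasome promoters. Each is the 250 bases before the first listed start, 5′ to 3′ on the strand of the gene. Capitals mark 3 motifs searched on both strands, the core of the antioxidant response element (TGACNNNGC), the CCAAT box (CCAAT) and an ETS site (CCGGAAG), which do not overlap in the windows shown. PSMD2 (chr3:184298991-184299240, plus strand) encodes the scaffold of the base and PSMC5 (chr17:63827181-63827430, plus strand) 1 of its ATPases. PSMD5 (chr9:120842923-120843172, minus strand) is a chaperone of the base, PSMG2 (chr18:12658488-12658737, plus strand) and PSMG1 (chr21:39183452-39183701, minus strand) form a chaperone of the α ring, and PSMF1 (chr20:1113013-1113262, plus strand) encodes the inhibitor PI31.
PSMD2: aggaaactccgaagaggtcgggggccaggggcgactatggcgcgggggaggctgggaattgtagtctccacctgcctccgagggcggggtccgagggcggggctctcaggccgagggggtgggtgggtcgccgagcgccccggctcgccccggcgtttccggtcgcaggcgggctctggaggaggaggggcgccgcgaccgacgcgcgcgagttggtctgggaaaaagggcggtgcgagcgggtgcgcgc
PSMC5: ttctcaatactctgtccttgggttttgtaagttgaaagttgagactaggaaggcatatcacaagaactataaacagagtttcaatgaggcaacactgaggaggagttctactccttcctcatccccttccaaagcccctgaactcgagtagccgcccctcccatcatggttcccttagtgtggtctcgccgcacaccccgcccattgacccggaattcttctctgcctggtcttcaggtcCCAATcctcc
PSMD5: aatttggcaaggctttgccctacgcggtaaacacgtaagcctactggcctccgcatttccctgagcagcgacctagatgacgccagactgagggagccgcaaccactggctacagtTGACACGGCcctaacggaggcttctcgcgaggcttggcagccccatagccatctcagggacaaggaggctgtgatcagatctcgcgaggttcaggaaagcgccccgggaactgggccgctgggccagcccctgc
PSMG2: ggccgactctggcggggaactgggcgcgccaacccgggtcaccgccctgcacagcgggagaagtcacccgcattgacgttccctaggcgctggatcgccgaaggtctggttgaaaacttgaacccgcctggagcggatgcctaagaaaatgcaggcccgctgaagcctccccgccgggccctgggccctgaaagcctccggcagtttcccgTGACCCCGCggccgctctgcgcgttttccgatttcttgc
PSMG1: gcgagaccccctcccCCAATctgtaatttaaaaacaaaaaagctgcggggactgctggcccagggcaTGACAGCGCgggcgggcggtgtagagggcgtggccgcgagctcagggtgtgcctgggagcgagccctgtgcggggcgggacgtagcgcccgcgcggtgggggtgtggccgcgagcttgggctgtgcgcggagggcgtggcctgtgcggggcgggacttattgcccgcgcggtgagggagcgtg
PSMF1: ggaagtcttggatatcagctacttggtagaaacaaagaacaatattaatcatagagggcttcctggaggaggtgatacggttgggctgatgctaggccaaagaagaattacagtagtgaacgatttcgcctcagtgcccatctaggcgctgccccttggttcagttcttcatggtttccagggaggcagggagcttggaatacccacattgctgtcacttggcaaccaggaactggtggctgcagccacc

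Among these 6 windows, those of PSMD5, PSMG2 and PSMG1 held the antioxidant response element core. It began 134 bases before the start in PSMD5, 39 in PSMG2 and 183 in PSMG1. The windows of PSMD2 and PSMF1 held none of the 3 motifs. Over all, 39 of the 46 members had an entry, with 48 promoters, and 12 promoters of 12 members held the core (25.0%), against 3830 of all 35116 promoters in the table (10.9%). The CCAAT box was in 19 of 48 (39.6% against 32.0%) and the ETS site in 11 of 48 (22.9% against 8.52%). The members with the core were PSMA4, PSMB3, PSMC5, PSMD3, PSMD5, PSMD9, PSMD12, PSME1, PSME2, PSME4, PSMG1 and PSMG2. Of these 12, 4 were higher and 8 lower in control MDA-MB-468 than in control MDA-MB-231 cells, and of the other 27 members with an entry, 10 were higher and 17 lower. A match is a run of letters, and binding was not measured.

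The values are log2(FPKM + 1), where FPKM is the number of fragments per kilobase of transcript, scaled to the mapped fragments of the library. SMARCA4 FPKM in KO cells was 44.3% of control in MDA-MB-468 cells and 32.7% of control in the MDA-MB-231 line (limma adjusted p = 0.014 and 0.0014, n = 3 against 3). Mean log2 levels of EPCAM and KRT5, epithelial and basal markers, were 8.24 and 8.87 in control MDA-MB-468 cells and 3.89 and 0.0095 in control MDA-MB-231 cells, while the mesenchymal marker VIM was at 1.82 and 10.4. MSN, which links membrane and actin and is high in mesenchymal cells, was also lower in MDA-MB-468 controls (6.59 and 8.22), whereas CD44 was at 9.80 and 8.91, the other way round. The immune markers PTPRC, CD3D, CD3E and CD79A and the stromal markers PDGFRA, PDGFRB, COL1A1 and DCN were not analysed here, and CD14 was at 5.66 in control MDA-MB-468 cells. The table gives no read counts, so the depth is unknown. The median log2 level of the 46 members was between 6.68 and 6.90 over the 12 samples, and the members held 0.796% to 1.01% of the summed FPKM. The lowest medians were those of MDA-MB-468 control replicate 1 (6.68) and MDA-MB-231 KO replicate 1 (6.71), and the counts and medians of each KO comparison, with the calls and some member values, are also given without them.

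All 46 members were expressed in both cell lines, at levels that varied with their role. Levels between genes are compared as FPKM, which is per length. In control MDA-MB-231 cells the α subunits had a median FPKM of 153, from 69.0 for PSMA2 to 457 for PSMA7, and the β subunits of 255. The corresponding medians in control MDA-MB-468 cells were 176 and 144. The lid subunits were lower, with medians of 106 in MDA-MB-231 and 80.2 in MDA-MB-468 cells. PSMD2 had the highest level of any member in control MDA-MB-231 cells, at 465 ± 60.7 FPKM (SD, n = 3), next to PSMA7 at 457 ± 27, and these 2 did not differ beyond their spread. In control MDA-MB-468 cells PSMD8, a lid subunit, was highest at 315 ± 19.0 FPKM, followed by PSMB4 at 302 ± 9.59 and PSMA7 at 297 ± 21.9, again within their spread. The lowest of the 44 proteasome genes was PSMD5 in control MDA-MB-468 cells, at 19.5 ± 0.751 FPKM, and PSME4, the PA200 activator that also acts on histones, in control MDA-MB-231 cells, at 25.9 ± 0.803. The 2 matches that are not proteasome proteins were also low, PSMD5-AS1 at 8.22 ± 0.875 and 10.9 ± 2.13 FPKM and PSMC3IP at 20.7 ± 1.75 and 28.2 ± 1.5.

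**Figure D1:**
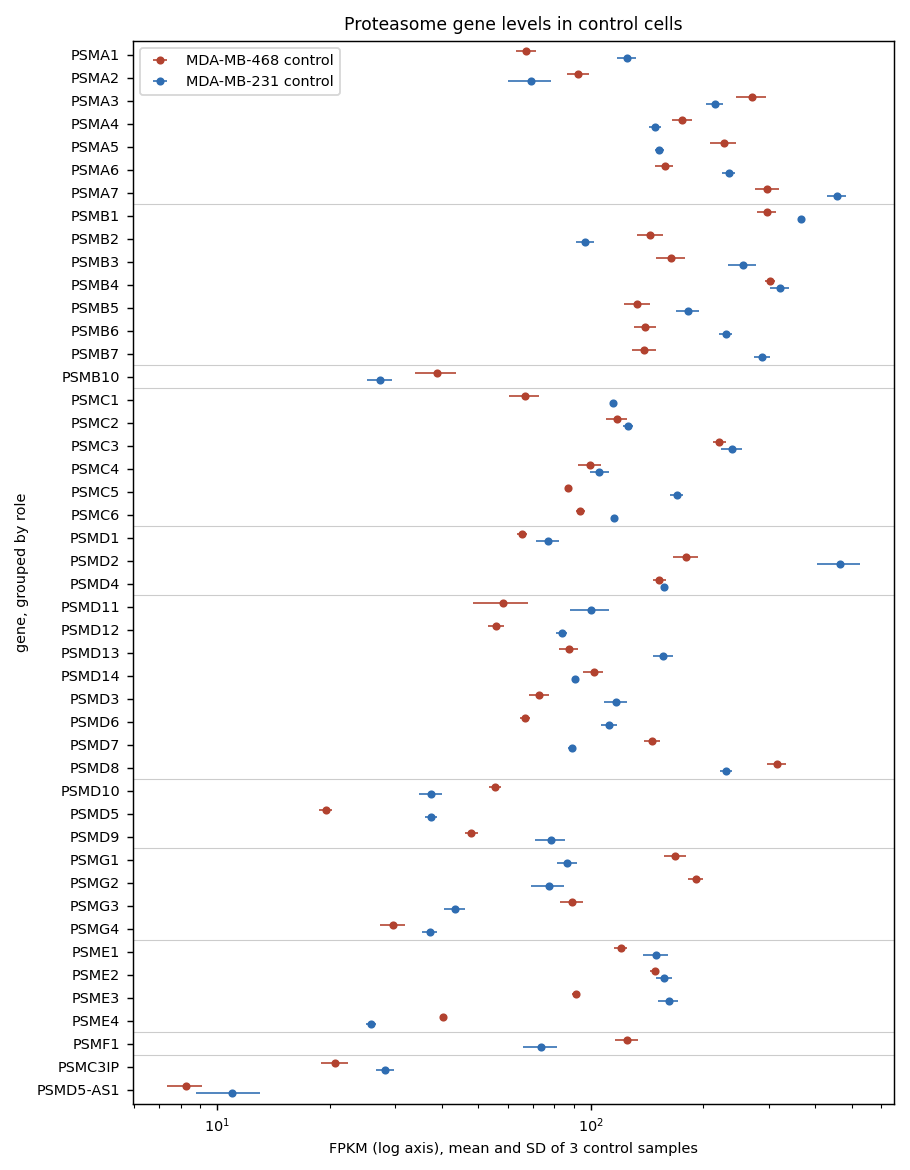
Level of each of the 46 genes in the control cells of both lines, in FPKM on a log axis, with genes grouped by role from the α ring at the top to the 2 other matches at the bottom. Points are means and bars SD of 3 samples, and PSMD2 at 465 FPKM in MDA-MB-231 cells stands far to the right of its 180 FPKM in MDA-MB-468 cells.

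The 3 catalytic β subunits were each lower in control MDA-MB-468 than in control MDA-MB-231 cells. PSMB5, the chymotrypsin-like subunit, had log2 values of 6.93, 7.13 and 7.14 in MDA-MB-468 and 7.42, 7.51 and 7.62 in MDA-MB-231 controls (log2 difference -0.45 ± 0.080, SE, limma adjusted p = 0.00021). PSMB6, the caspase-like subunit, had 7.03, 7.16 and 7.22 against 7.85, 7.80 and 7.91 (difference -0.71 ± 0.078, limma adjusted p = 2.9e-06). PSMB7, the trypsin-like subunit, had 7.01, 7.20 and 7.18 against 8.25, 8.12 and 8.15 (difference -1.04 ± 0.078, limma adjusted p = 7.7e-08). The values of the 2 lines did not overlap for any of the 3. In this comparison 43.2% of all genes lay wholly above and 42.3% wholly below. PSMB10, which takes the place of PSMB7 in the immunoproteasome, was higher in MDA-MB-468 controls, with 5.10, 5.38 and 5.44 against 4.78, 4.74 and 4.94 (difference 0.49 ± 0.11, limma adjusted p = 0.0016). Of the other immunoproteasome subunits, which the rule leaves out, PSMB8 was also higher in MDA-MB-468 controls (0.98 ± 0.10, limma adjusted p = 1.6e-06), while PSMB9 had a difference of -0.23 ± 0.11 (limma adjusted p = 0.055).

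Over all members, 9 were called higher and 17 lower in control MDA-MB-468 cells, with an adjusted p under 0.05 and a log2 difference over 0.5 in size. Of all genes, 32.8% were called higher and 31.4% lower by the same rule. The median difference was -0.30 for the members, against 0.012 for all genes and -0.027 for the 1647 genes with a mean log2 level over 6, where most members lie. The number of called members was 2 higher and 2 lower with a log2 difference over 1, where 2212 and 1936 of all 11529 genes were. In a bulk sample, fewer cells of a type and less RNA per cell cannot be told apart.

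Chaperones of the α ring had the highest positive differences. PSMG2 was at 7.52, 7.57 and 7.66 in MDA-MB-468 and 6.32, 6.12 and 6.41 in MDA-MB-231 controls (difference 1.30 ± 0.081, limma adjusted p = 1.5e-08). PSMG3 was at 6.38, 6.58 and 6.51 against 5.43, 5.40 and 5.57 (1.02 ± 0.075, limma adjusted p = 7.0e-08), and its partner in the same chaperone pair, PSMG4, was lower (-0.32 ± 0.099, limma adjusted p = 0.010). Thus 3 of the 4 chaperones of the α ring were called higher, where 32.8% of all genes were. PSMG1 had 7.30, 7.41 and 7.49 against 6.51, 6.35 and 6.48 (0.95 ± 0.072, limma adjusted p = 9.0e-08). The inhibitor PSMF1 had 6.86, 7.07 and 6.99 against 6.29, 6.04 and 6.32 (0.76 ± 0.098, limma adjusted p = 1.3e-05). For PSMG1, PSMG2, PSMG3 and PSMF1 no value of MDA-MB-231 controls reached those of MDA-MB-468 controls, as for 43.2% of all genes.

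At the other end, the lowest differences were those of PSMD2, the catalytic subunit PSMB7 given above, PSMC5 and PSMD5. PSMD2 had 7.36, 7.57 and 7.56 in MDA-MB-468 and 9.07, 8.75 and 8.75 in MDA-MB-231 controls (-1.36 ± 0.10, limma adjusted p = 9.8e-08). PSMC5 had 6.45, 6.50 and 6.44 against 7.45, 7.35 and 7.45 (-0.95 ± 0.077, limma adjusted p = 1.6e-07). PSMD5 had 4.40, 4.30 and 4.37 against 5.21, 5.32 and 5.25 (-0.91 ± 0.061, limma adjusted p = 2.8e-08). All MDA-MB-468 values of these genes lay below all MDA-MB-231 values, as for 42.3% of all genes. Of the 8 lid subunits, 5 were called lower and 1, PSMD7, higher, and of the 6 ATPases of the base 2 were called lower and 0 higher, where 31.4% of all genes were called lower and 32.8% higher. PSMD5 and PSMD5-AS1 overlap on chromosome 9 (GRCh37, 123577774 to 123605229 and 123587106 to 123616663), and how the counting treated strand is not given in the sources used here, so their reads may not have been told apart.

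The difference of a member between the control lines moved with that of the genes beside it on the chromosome. For each member, the median difference of the 25 nearest genes on each side was taken, leaving out other members. Across the 46 members, the Pearson correlation of the member with its neighbours was 0.80 and the Spearman correlation 0.79. The sign was the same for 36 of 46. Over all 10818 genes with a position the values were 0.30 and 0.41, with 69.3% of the same sign, and over the 1613 of them with a mean log2 level over 6 they were 0.44 and 0.56, with 74.0%. The points share the same 6 control libraries, and members near each other share neighbours. Taking the libraries of each replicate number alone, which share no sample, gave Pearson correlations of 0.76, 0.80 and 0.83. Windows of 10 or 50 genes on each side, chosen after seeing the data, gave 0.81 and 0.80.

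Chromosome 17 carries 8 members, PSMB6, PSMD11, PSMB3, PSMD3, PSMC3IP, PSME3, PSMC5 and PSMD12. All 8 were lower in control MDA-MB-468 cells, with a median difference of -0.70. Of these, 7 were called lower, where 31.4% of all genes were, and the called share of this chromosome was not counted. The other 662 genes of that chromosome had a median of -0.46, and 70.4% of them were lower. On chromosome 14, 6 of 7 members were lower, where the 347 other genes had a median of -0.46 and 73.8% of them were lower. On chromosome 11 the 3 members were all lower (median -0.83), while its 671 other genes had a median of 0.14. The 2 members of chromosome 6 were lower too, beside a median of 0.25 for its other genes. PSMG1 lies on chromosome 21, whose 114 other genes had a median of 0.80, the highest of any chromosome. The SD of the 46 member differences was 0.63, and 0.38 after the neighbours' median was subtracted from each. PSMD2 kept the lowest value after this subtraction (-0.95), as its 50 neighbours had a median of -0.41, followed by PSMB1 (-0.71). PSMA3 had the highest (0.88), since its neighbours were lower (-0.55) while PSMA3 itself was higher (0.33). Copy number was not measured in these data.

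**Figure D2:**
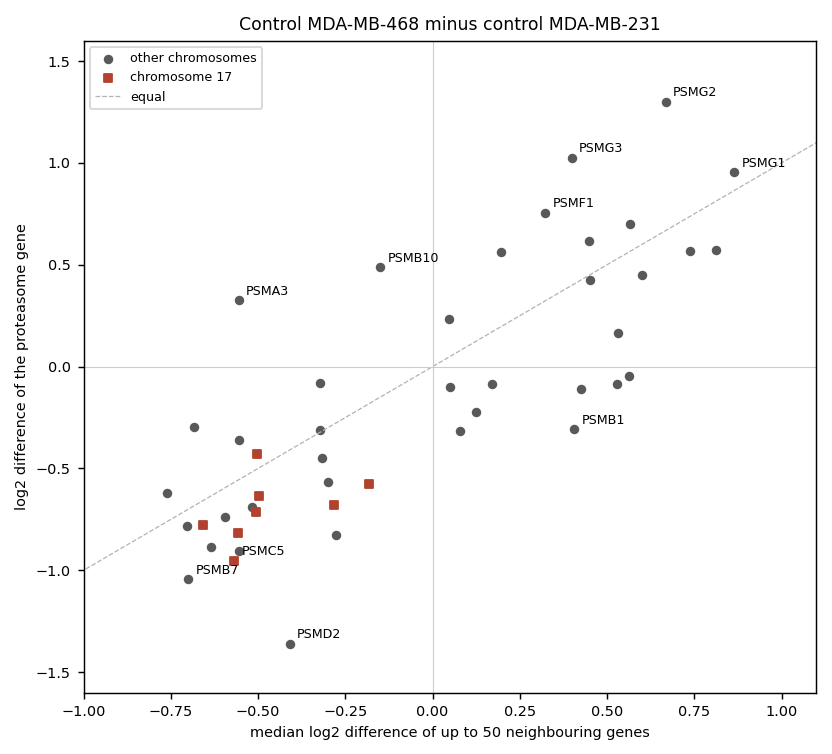
Log2 difference of each of the 46 genes between the control lines (vertical axis) against the median log2 difference of up to 50 neighbouring genes on its chromosome (horizontal axis). Red squares are the 8 genes of chromosome 17, which all lie below 0 on both axes, and the dashed line marks equal values, with PSMD2 far below it and PSMA3 far above it.

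The KO comparison in MDA-MB-468 cells addressed which genes respond to the loss of SMARCA4. No member was called a DEG, against 2.14% of all genes (adjusted p under 0.05 and log2 fold change over 0.5 in size). At an adjusted p under 0.05 alone 0 members passed in either direction, where 2.21% of all genes were higher and 1.54% lower. At an unadjusted p under 0.05, limma gave 12 members higher and 1 lower, and 1631 and 1268 of all genes. The fold changes were small and mostly positive, with 36 of 46 members above 0, where 53.6% of all genes were. Of the 1647 genes with a mean log2 level over 6, 65.2% were above 0. The median was 0.078 for the members, against 0.016 for all genes and 0.054 for those 1647. All 3 KO samples lay above all 3 controls for 17 of 46 members (17.5% of all genes) and below them for 2, PSMD10 and PSMD5 (13.5% of all genes). Without MDA-MB-468 control replicate 1, the median fold change of the members was 0.037 and 29 of 46 were above 0 (6151 of all 11529 genes). At an unadjusted p under 0.05, 8 were then higher and 0 lower (1331 and 964 of all genes), and the KO samples lay above the controls for 17 members (2534 of all 11529 genes) and below them for 4 (1941).

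The members with the smallest p-values belonged to different parts of the particle. PSMG4, a chaperone of the α ring (chromosome 6, 3231637 to 3303607, GRCh37), had log2 values of 4.83, 4.92 and 5.04 in controls and 5.26, 5.48 and 5.47 in KO samples, or 29.6 ± 2.23 against 41.4 ± 3.62 FPKM. Its log2 fold change was 0.47 ± 0.088 (limma adjusted p = 0.052), and the groups did not overlap. PSMD4, the ubiquitin receptor of the base, had 7.20, 7.27 and 7.32 against 7.48, 7.56 and 7.61 (0.29 ± 0.056, limma adjusted p = 0.056). PSMB4, a structural β subunit, had 8.19, 8.26 and 8.27 against 8.46, 8.52 and 8.45 (0.23 ± 0.047, limma adjusted p = 0.060). PSMD13, a lid subunit, had 6.39, 6.46 and 6.55 against 6.64, 6.76 and 6.70 (0.23 ± 0.062, limma adjusted p = 0.094). Every KO value of these 3 genes was also above every control value, by a margin that did not pass the test over all genes. Without control replicate 1, the fold changes were 0.42 for PSMG4, 0.25 for PSMD4, 0.20 for PSMB4 and 0.19 for PSMD13 (limma adjusted p = 0.12, 0.13, 0.13 and 0.20). Over its 17 alternatives the adjusted p of PSMG4 ranged from 0.011 to 0.18, and 7 were under 0.05, among them the fit without KO replicate 1, in which its fold change of 0.55 also passed the limit. PSMB4 and PSMD4 passed in the fit of all samples together and with an intensity trend.

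By role, the 14 subunits of the core particle had fold changes from 0.0086 for PSMA1 to 0.23 for PSMB4 in MDA-MB-468 cells, all above 0, but 10 of 14 were above 0 without control replicate 1, 12 without KO replicate 2, 13 without control replicate 2, 12 with scaling to the 75th percentile, 11 with quantile normalization and 13 with GC and length correction. None of the 14 passed. The catalytic subunits PSMB5, PSMB6 and PSMB7 had 0.19 ± 0.077, 0.18 ± 0.062 and 0.13 ± 0.077, with control and KO values that did not overlap for PSMB5 and PSMB6. Among the 17 base and lid subunits 14 were positive, and 13 without control replicate 1. The chaperones of the base were mixed, with PSMD9 at 0.21 ± 0.062 and PSMD10 and PSMD5 both at -0.14. Of the 4 activator genes only PSME2, of the PA28 ring, was above 0 (0.18 ± 0.051), with 7.19, 7.26 and 7.22 in controls and 7.47, 7.35 and 7.40 in KO samples (limma adjusted p = 0.10).

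In MDA-MB-231 cells 0 members were called DEGs, against 3.70% of all genes. At an adjusted p under 0.05 alone, 4 of 46 members were lower, where 5.48% of all genes were, and 0 were higher, where 5.34% of all genes were. At an unadjusted p under 0.05, limma gave 0 members higher and 14 lower, where 1705 of all genes were higher and 1891 lower (8.86% and 23.6% of the genes with a mean log2 level over 6). The fold changes were mostly negative, with 36 of 46 below 0, where 5935 of all 11529 genes were. Of the 1647 genes with a mean log2 level over 6, 1098 were below 0. The median was -0.098 for the members, against -0.0064 for all genes and -0.066 for those 1647. All KO samples lay below all controls for 17 of 46 members (19.4% of all genes) and above them for 0 (16.6% of all genes). Without KO replicate 1, the median of the members was -0.072 and 13 of 46 were above 0 (5626 of all 11529 genes). At an unadjusted p under 0.05, 2 members were then higher and 6 lower (1425 and 1424 of all genes), and the KO samples lay above the controls for 2 members (20.8% of all genes) and below them for 18 (22.5%).

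The 4 members that fell were a chaperone, a lid subunit, an α subunit and an activator. PSMD5 (chromosome 9, 123577774 to 123605229, GRCh37) had 5.21, 5.32 and 5.25 in controls and 4.98, 4.92 and 5.05 in KO samples (-0.28 ± 0.055, limma adjusted p = 0.037). PSMD12 (chromosome 17, 65334032 to 65362721), of the lid, had 6.45, 6.35 and 6.41 against 6.17, 6.11 and 6.21 (-0.24 ± 0.049, limma adjusted p = 0.040). PSMA4 (chromosome 15, 78832747 to 78844759) had 7.17, 7.24 and 7.27 against 7.01, 6.99 and 7.05 (-0.21 ± 0.047, limma adjusted p = 0.046). Control and KO samples did not overlap for these genes. PSME4 (chromosome 2, 54091206 to 54198130) had 4.77, 4.70 and 4.77 against 4.55, 4.56 and 4.56 (-0.19 ± 0.043, limma adjusted p = 0.047), the narrowest KO group of the 4. These 4 no longer passed in any of the 6 fits that left out 1 library, whichever it was (0 members lower). Over all genes, calls with the fold limit went from 426 to between 99 and 311 in these fits. Without KO replicate 1, the genes lower at an adjusted p under 0.05 went from 632 to 102 of 11529. The 4 also did not pass with a correction for GC content and length (0 members lower, median of all members -0.052), where 451 genes were called. The fold changes of the members moved with GC content, with a Spearman correlation of 0.34 over the 46 members in MDA-MB-231 and 0.65 in MDA-MB-468 cells, against 0.28 and 0.30 over 10876 genes. The genes share the same 6 libraries in each line.

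Among the other groups in MDA-MB-231 cells, 13 of 14 core particle subunits had negative fold changes, the exception being PSMA6 (0.089 ± 0.061), and 11 of 14 without KO replicate 1, 11 with either other scaling and 9 with GC and length correction. The 3 catalytic subunits were at -0.10 ± 0.070 for PSMB5, -0.047 ± 0.080 for PSMB6 and -0.20 ± 0.064 for PSMB7, which did not pass. PSMB7 values were 8.25, 8.12 and 8.15 in controls and 7.90, 7.94 and 8.07 in KO samples, without overlap. PSMG4, the member with the smallest p in MDA-MB-468 cells, had 5.25, 5.18 and 5.31 in controls and 5.22, 5.58 and 5.45 in KO samples (0.17 ± 0.10, limma adjusted p = 0.31), and here the groups overlapped. Without KO replicate 1, PSMG4 was at 0.27 ± 0.071 (limma adjusted p = 0.12).

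The KO effect was compared between the cell lines as the log2 fold change in MDA-MB-468 minus that in MDA-MB-231 cells. SMARCA4 RNA itself fell less in MDA-MB-468 cells (difference 0.41 ± 0.11, limma adjusted p = 0.027), and whether this bears on the members was not tested. PSMD2 was the 1 member whose effects differed at an adjusted p under 0.05, where 7.91% of all genes had a positive and 6.83% a negative difference. PSMD2 (chromosome 3, 184016986 to 184026838, GRCh37) was at 7.36, 7.57 and 7.56 in MDA-MB-468 controls and 7.62, 7.80 and 7.79 in KO samples (0.24 ± 0.084). In MDA-MB-231 cells it was at 9.07, 8.75 and 8.75 in controls and 8.38, 8.58 and 8.61 in KO samples (-0.33 ± 0.11). KO samples lay above all controls in one line and below all controls in the other, and PSMD2 was the only member of which this was true. It was also true of RPS27A, of the other pathway genes described below, and was not counted over all genes. The difference of the effects was 0.57 ± 0.15 (limma adjusted p = 0.026), while neither effect passed alone (adjusted p = 0.16 and 0.11). It was not past the threshold without MDA-MB-468 control replicate 1 (adjusted p = 0.060), MDA-MB-231 KO replicate 1 (0.063), MDA-MB-468 KO replicate 2 (0.065) or MDA-MB-468 KO replicate 3 (0.053), and over its 22 alternatives the adjusted p ranged from 0.017 to 0.091.

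The next members were PSMD9 (0.36 ± 0.12, limma adjusted p = 0.062), PSMB7 (0.33 ± 0.11, limma adjusted p = 0.064) and PSME2 (0.25 ± 0.087, limma adjusted p = 0.072). PSMD9 had 5.60, 5.56 and 5.67 in MDA-MB-468 controls and 5.92, 5.78 and 5.76 in KO samples. In MDA-MB-231 cells it had 6.21, 6.25 and 6.45 in controls and 6.03, 6.17 and 6.26 in KO samples. Only the MDA-MB-468 groups of PSMD9 were apart. The difference of effects was positive for 42 of 46 members, with a median of 0.19, against 0.020 for all genes and 0.12 for those with a mean log2 level over 6. It was positive for 53.1% of all genes and for 69.7% of those with a mean log2 level over 6. The member median was 0.16 without MDA-MB-468 control replicate 1 and also without MDA-MB-231 KO replicate 1. In these fits 41 and 42 members were above 0 (6190 and 6037 of all 11529 genes), and 0 members passed in either. Of all genes, 555 passed as higher and 483 as lower in the first fit, and 530 and 465 in the second. For 28 members the fold change was positive in MDA-MB-468 cells but negative in MDA-MB-231 cells, which was not counted over all genes. Scaling to the 75th percentile changed the split of all genes past the threshold from 912 higher and 787 lower to 671 and 941, with PSMD2 still past it and 41 members above 0.

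**Figure D3:**
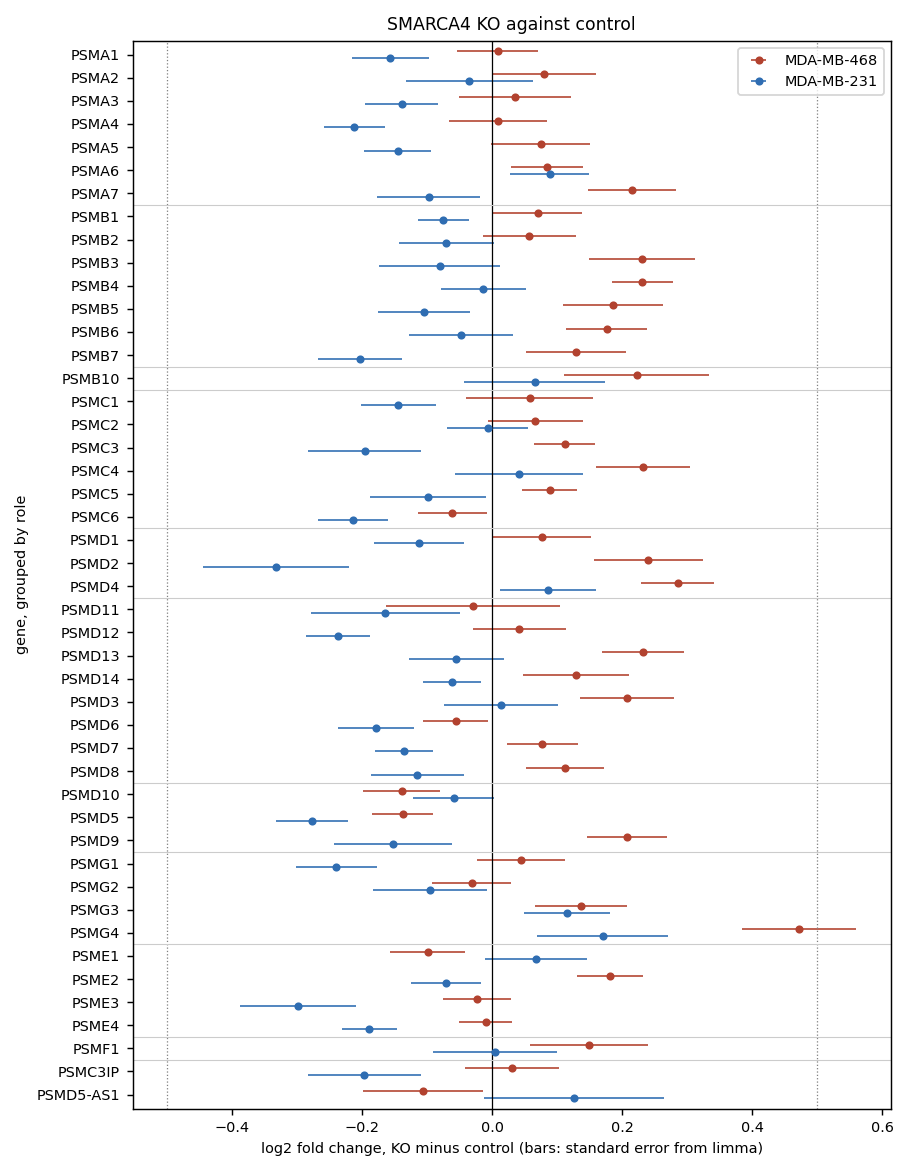
Log2 fold change of KO against control for each of the 46 genes, grouped by role, with standard errors from limma; red is MDA-MB-468 and blue MDA-MB-231, and dotted lines mark 0.5 in each direction. Most red points lie to the right of 0 (36 of 46) and most blue points to the left (36 of 46), and no point is beyond a dotted line.

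**Figure D4:**
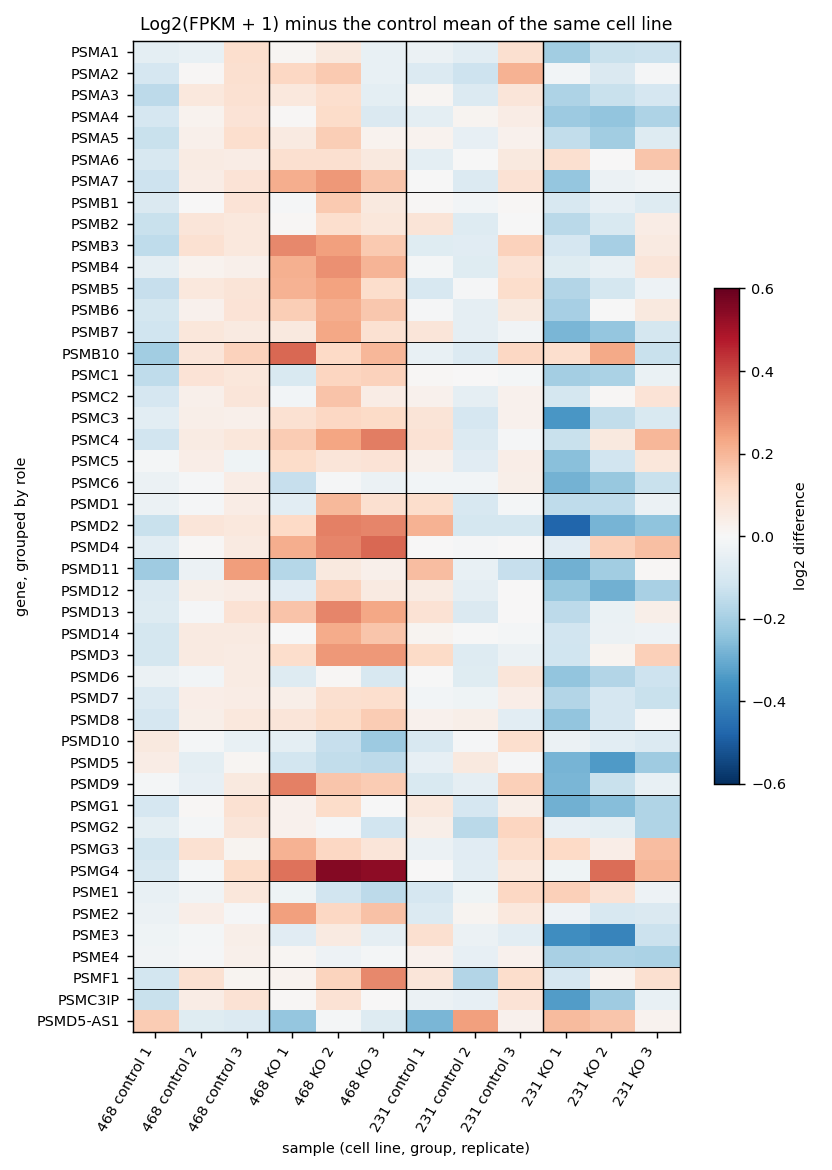
Log2(FPKM + 1) of each gene in each of the 12 samples minus the control mean of the same cell line, from blue (lower) to red (higher), with genes grouped by role. In MDA-MB-468 control replicate 1 most genes are blue, in MDA-MB-231 KO replicate 1 also, and PSMG4 is the darkest red in the MDA-MB-468 KO samples.

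Other genes of the pathway came from a list of ubiquitin genes, shuttle factors, chaperones and transcription factors, of which 32 were measured. In MDA-MB-468 KO cells 0 of 32 passed at an adjusted p under 0.05, with 6 higher and 2 lower at an unadjusted p under 0.05 (1631 and 1268 of all 11529 genes), and 3 and 2 without control replicate 1. In MDA-MB-231 KO cells 1 rose and 1 fell, where 5.34% of all genes rose and 5.48% fell. ZFAND5, which binds the proteasome and stimulates it, had 6.27, 6.18 and 6.28 in controls and 6.58, 6.55 and 6.53 in KO samples (0.31 ± 0.047, limma adjusted p = 0.020). NGLY1, the deglycosylase that activates NFE2L1, had a fold change of -0.20 ± 0.046 (limma adjusted p = 0.048). Without KO replicate 1 neither passed (adjusted p = 0.074 for ZFAND5 and 0.13 for NGLY1). The effects in the 2 lines differed for 3 of the 32, with 2 positive and 1 negative difference, beside the 7.91% and 6.83% of all genes. ZFAND5 had -0.17 ± 0.053 in MDA-MB-468 cells, and the difference was -0.48 ± 0.084 (limma adjusted p = 0.0043). ADRM1, a ubiquitin receptor of the proteasome, had 0.33 ± 0.085 and -0.13 ± 0.080 (difference 0.46 ± 0.12, limma adjusted p = 0.032). RPS27A, which encodes ubiquitin fused to a ribosomal protein, had 0.18 ± 0.069 and -0.16 ± 0.064 (difference 0.35 ± 0.10, limma adjusted p = 0.044). Without MDA-MB-468 control replicate 1 the adjusted p of the difference was 0.011 for ZFAND5, 0.072 for ADRM1 and 0.095 for RPS27A. Without MDA-MB-231 KO replicate 1 it was 0.014, 0.078 and 0.10, so that ZFAND5 alone passed in both.

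NFE2L1 itself was at 5.39, 5.36 and 5.26 in MDA-MB-468 and 6.70, 6.69 and 6.48 in MDA-MB-231 controls (-1.29 ± 0.089, limma adjusted p = 3.8e-08), and it lies on chromosome 17. Its KO fold changes were -0.0091 ± 0.092 and 0.019 ± 0.073. NFE2L2, the related factor of the oxidative stress response, was higher in MDA-MB-468 controls (0.44 ± 0.076, limma adjusted p = 0.00016), with KO fold changes of -0.029 ± 0.076 and 0.12 ± 0.061. POMP, the chaperone that brings the β subunits together, was lower in MDA-MB-468 controls (-0.17 ± 0.065, limma adjusted p = 0.028) and its KO fold changes were 0.0069 ± 0.053 and, in MDA-MB-231 cells, -0.19 ± 0.061. PSMB8 and PSMB9 had KO fold changes of 0.20 ± 0.083 and 0.30 ± 0.086 in MDA-MB-468 cells and 0.060 ± 0.11 and 0.036 ± 0.11 in MDA-MB-231 cells, and neither passed.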

How the data were processed

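RNA of 12 samples was sequenced as TruSeq stranded mRNA libraries. After trimming (Trimmomatic) and alignment to hg19 (STAR), RSEM gave FPKM. Genes whose average FPKM or SD was under 1 had been dropped by the authors, and the deposited values are log2(FPKM + 1) for 11529 genes. No read counts are given, so depth is unknown. All 12 columns were mapped to samples by title (0 unmapped).

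The 46 members and all gene lists and motifs were chosen with earlier results of these data known. Each cell line was fitted with limma 3.58.1 in R 4.3.3 (lmFit, eBayes without trend) on the deposited log2 values, 3 KO against 3 control samples, without a further filter. The difference of KO effects and the comparison of controls came from 1 fit of 4 groups. P-values are two-sided, adjusted by Benjamini-Hochberg over 11529 genes. Calls needed an adjusted p under 0.05 and, except for the difference of effects, a log2 fold change over 0.5 in size. The fits were tested on simulated data with known changes. These were larger than the KO fold change of any member, so the test does not show how well changes of that size are found.

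Members named with single values were those past a threshold in a KO comparison, or else the 4 with the smallest p, the 4 highest and 4 lowest between control lines, and PSMB5, PSMB6, PSMB7 and PSMB10. Of other pathway genes, those past a KO threshold, NFE2L1, NFE2L2, POMP, PSMB8 and PSMB9 were named. Symbols were matched to GENCODE release 44 on GRCh37 (94.3% of rows, 695 by an older name) for positions, GC content and length. Processed copies are annotated for 17 of the proteasome genes, and RSEM may divide reads between them. Deviations of samples with the same replicate number correlated at 0.25, 0.16 and 0.12 in MDA-MB-468 cells. Those with different numbers were at -0.23 to 0.13. The deviations were taken from the mean of each group and cancel within it, so these correlations do not settle whether samples were paired. The numbers, which come from the sample titles, served as a block in some refits but not in the main fits. The p numbers in the descriptions of these MDA-MB-468 samples differ. Promoters were read from a RefSeq table (GRCh38.p14). Python 3.11.15 and matplotlib 3.10.9 were used for promoters and plots.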

Additional observations from a re-analysis of the deposited data

Results flagged for a closer look

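Groups of 3 samples are too small for a test of single outlying samples. By the interaction term of limma, the KO effect differed between the cell lines for 1 member and 3 other pathway genes. With the MDA-MB-231 effect subtracted from that of MDA-MB-468, the difference was 0.57 for PSMD2, 0.46 for ADRM1, 0.35 for RPS27A and -0.48 for ZFAND5 on the log2 scale.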

How the results depend on the processing

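Read depth is unknown, and 3 samples a group limit the precision. Of 1380 refits of single named members, 1266 kept their direction and side of the threshold, 54 lost and 22 gained a call, and 38 changed sign, none of them past the threshold. In MDA-MB-468 KO cells PSMA4 became -0.0022 with scaling to the 75th percentile and -0.027 with quantile normalization, and PSME4 0.066 with GC and length correction, with or without the block. In MDA-MB-231 KO cells PSMB4 became 0.024 and 0.042 with these scalings and 0.027 with that correction, which also gave -0.050 for PSMF1 and 0.023 for PSMG2. The difference of KO effects became -0.026 and -0.032 for PSMG3 with the scalings, and -0.061 for PSMG3 and -0.030 for PSMG2 with the correction. Leaving out 1 library gave, in MDA-MB-468 cells, -0.0070 to 0.096 for PSMD12, -0.041 to 0.057 for PSMA4, -0.020 to 0.0047 for PSME4, -0.0067 to 0.091 for PSMG1 and -0.062 to 0.0092 for PSMG2. It gave, in MDA-MB-231 cells, -0.058 to 0.030 for PSMB4, -0.083 to 0.057 for PSMF1, -0.10 to 0.029 for PSMB6 and -0.017 to 0.16 for PSMB10, and for the difference of effects -0.034 to 0.067 for PSMG3. In MDA-MB-468 KO cells, members higher at an adjusted p under 0.05 went from 0 to 1 with a filter on a mean log2 level over 2, with GC and length correction, with that correction and the replicate block, and with only genes of known GC content (added after seeing the data), and to 3 with an intensity trend or 1 fit of all samples. Leaving out 1 library gave 0 to 2 higher, 0 to 1 called with the fold limit, and a median of 0.037 to 0.11. In MDA-MB-231 KO cells, members lower at an adjusted p under 0.05 went from 4 to 2 with a pseudocount of 0.1 or the filter. The count was 1 with scaling to the 75th percentile or quantile normalization and 0 with GC and length correction. It was 6 (PSMC6, PSMD12, PSMD5, PSME3, PSME4 and PSMG1) with 1 fit of all samples. Whichever 1 library was left out, it was 0, with a median of all members of -0.14 to -0.071. Over all genes, 99 to 311 were then called with the fold limit, against 426 in the main fit. For the difference of KO effects, members past the threshold went from 1 to 0 with quantile normalization (median 0.12), with the p number of the sample descriptions as a block and with a log2 limit of 1, to 2 with GC and length correction, to 3 with that correction and the replicate block, and to 4 with an intensity trend. Leaving out 1 library gave 0 to 4 (924 to 1897 of all genes), and a median of 0.16 to 0.24. Between control lines, a log2 limit of 1 left 2 members higher and 2 lower (2212 and 1936 of all genes). Leaving out 1 library gave 9 to 11 and 17 to 17. The cause was not tested for any of these, apart from the stricter limit, which can only lower a count.

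With the replicate number as a block, 0 members passed in MDA-MB-468 KO cells, as without it, and PSMD2 stayed past the threshold of the difference of effects (adjusted p = 0.0499 from limma with the replicate block). In MDA-MB-231 cells the samples with the same number also have the same p number, and had correlations of -0.054, 0.074 and -0.11. There the block left 0 of 4 members, also with GC and length correction. Over all genes, the replicate block took the calls in MDA-MB-231 cells from 426 to 0, and with GC and length correction beside it 363 were called. With the p number as a block in MDA-MB-468 KO cells, 0 members passed and the calls over all genes went from 247 to 0. What the p number means is not given in the sources used here.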
